A study of Mus musculus with 58 samples.

Results

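Hpse encodes heparanase, the endoglucuronidase that cuts heparan sulfate chains into shorter pieces. It was followed here as 1 gene of the 24940 listed in a count table of mouse microglia lacking Sgsh, and of the 10589 listed in a count table of Sgsh-deficient microglia given antisense oligonucleotides. A further count table, of wild-type microglia given antisense oligonucleotides, lists 10277 genes and Hpse is not among them. The gene was chosen by symbol because earlier results of these libraries showed it higher in the Sgsh-deficient mice, so its values in the age series are given as a description, without a test. In the age table Hpse is the transcript NM_152803 on the minus strand of mm10 chromosome 5, at chr5:100679484-100719716, with a transcript length of 3103 bases. No other gene listed in that table overlaps it.

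Heparan sulfate is a sulfated sugar chain carried by core proteins at the cell surface and in the extracellular matrix. Heparanase is made as a precursor that is taken up and cut by lysosomal proteases, cathepsin L among them, and the active enzyme cleaves the chain internally. The pieces are then taken apart from their ends in the lysosome by a fixed order of exo-acting sulfatases, glycosidases and an acetyltransferase. Sgsh encodes sulfamidase, which removes the sulfate from the nitrogen of terminal glucosamine, and its loss is the defect of the lysosomal storage disease Sanfilippo syndrome type A. Mitf, Tfeb, Tfe3 and Tfec are the MiT/TFE transcription factors, known as regulators of lysosomal genes through CACGTG-type elements.

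All libraries came from forebrain microglia of C57BL/6 mice, sorted as CD11b+/CD45low/CX3CR1+ live single cells, and polyA RNA was sequenced. The age series compared WT with SgshKO mice at 3 weeks (3 and 4 libraries), 4 months (2 and 2) and 8 months (4 and 7). In the oligonucleotide experiments a single intracerebroventricular injection was given and the cells were collected 14 days later. SgshKO mice received a non-targeting oligonucleotide (ntc, 8 libraries) or a combination against Mitf and Tfe3 (8 libraries), in 2 sets labelled grp 1 and grp 2 with 4 libraries of each treatment. WT mice received PBS, ntc, or an oligonucleotide against Mitf, Tfeb or Tfe3, with 4 libraries each. The labels give neither the Sgsh allele nor the age of the injected mice, and they do not say what a grp is. They also do not say whether libraries of a group came from separate animals, so the p-values below measure only the spread between these libraries, which may in part be technical.

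Totals ran from 8191508 to 27106584 counts per library in the age series and from 12517838 to 30431437 in the SgshKO oligonucleotide table. The summed level of 10 microglia markers ran from 28899 to 52674 CPM (counts of a gene scaled to the size of the library) over the age series. Sgsh itself was still counted in every group. It averaged 18.9 CPM in SgshKO against 23.7 in WT at 3 weeks, 26.6 against 35.0 at 4 months and 26.6 against 44.4 at 8 months, and the difference passed the test only at 8 months (log2 fold change -0.74 ± 0.16 SE, edgeR adjusted p = 0.000583). Libraries of SgshKO mice at 4 and 8 months also held neutrophil transcripts, which are given beside the Hpse values below. In these bulk libraries a change in the share of cells that carry a transcript and a change in the amount per cell cannot be told apart.

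The 250 bases before the annotated start of Hpse are shown because the oligonucleotides were aimed at factors that bind CACGTG-type elements. The RefSeq window lies on the minus strand at chr5:100719717-100719966 (GRCm38.p6). It is printed 5′ to 3′ in the direction of transcription, with its single GGGCGG match in capitals.
Hpse: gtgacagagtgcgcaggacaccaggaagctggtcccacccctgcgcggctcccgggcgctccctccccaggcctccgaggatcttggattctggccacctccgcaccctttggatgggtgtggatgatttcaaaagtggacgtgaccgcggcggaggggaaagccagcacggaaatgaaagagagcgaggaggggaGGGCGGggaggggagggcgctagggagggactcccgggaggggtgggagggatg
In all, 6 motifs were searched on both strands, chosen with the oligonucleotide results known. Hpse held no CACGTG (found in 6.02% of 32851 RefSeq windows of this length), no CATGTG (12.3%), no CANNTG of any kind (66.2%, a pattern that includes the former motifs), no TGANTCA (6.75%) and no GAGGAAGT (2.44%). It held GGGCGG, a GC box, 54 bases before the start, as did 32.7% of all windows. These letters describe this window only, and say nothing about sites elsewhere.

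For comparison, the window of Naglu is shown, since Naglu is the other enzyme of this pathway with a sizeable fall after the Mitf and Tfe3 oligonucleotides (values below). It lies on the plus strand at chr11:101069844-101070093 (GRCm38.p6), and its CACGTG match, 73 bases before the start, is in capitals.
Naglu: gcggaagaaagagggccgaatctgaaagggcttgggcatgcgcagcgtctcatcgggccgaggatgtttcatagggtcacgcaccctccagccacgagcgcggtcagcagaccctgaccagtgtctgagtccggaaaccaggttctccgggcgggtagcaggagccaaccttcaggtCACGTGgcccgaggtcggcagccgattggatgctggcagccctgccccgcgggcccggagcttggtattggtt
Of the 9 genes reported from the list of lysosomal heparan sulfate enzymes, 8 had a window. CACGTG was present in 3 of these 8, those of Sgsh, Naglu and Sumf1, of which only Naglu was called lower after the combination. Idua, the other enzyme of this list called lower, held no CACGTG. Whether the motif goes with the response was not tested.

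At 3 weeks Hpse was counted at 1.26, 1.81 and 0.279 CPM in the 3 WT libraries, from 18, 30 and 5 reads. The 4 SgshKO libraries held 12.7, 5.42, 8.71 and 6.14 CPM, from 84 to 268 reads. The lowest SgshKO library was therefore above the highest WT library, and the means were 8.25 ± 3.30 (SD, n = 4) and 1.12 ± 0.774 CPM (SD, n = 3). The log2 fold change was 2.92 and ranked 57th from the top of 14309 genes tested, and without WT replicate 2, the highest of the WT libraries, it was 3.51. Pooled over libraries, Hpse made up a 7.74 times larger share of the counts in SgshKO, with a 95% interval of 5.83 to 10.5 that covers counting error only.

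At 4 months the gene was near absent from WT and abundant in SgshKO. Of the WT libraries, 1 held no Hpse read, which allows up to 0.355 CPM at its depth (3 reads), and the other held 3 reads (0.215 CPM). The SgshKO libraries held 117 and 95.5 CPM, from 955 and 1111 reads. The log2 fold change was 9.55, and the pooled ratio was 779 with a counting interval of 266 to 3779, which is wide because it rests on 3 WT reads. With the WT library of 3 reads left out no fold can be given, and with the WT library of no read (replicate 1) left out the log2 fold change was 8.91.

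At 8 months the 4 WT libraries held 0.277, 0.0970, 0 and 0.265 CPM, 9 reads in all, and the library with no read allows up to 0.144 CPM. The 7 SgshKO libraries ran from 155 through a median of 168 to 187 CPM, with 1717 to 5075 reads each. Their spread was small, at 168 ± 10.8 CPM (SD, n = 7), and all 7 lay far above WT. The log2 fold change of 10.21 was the 2nd highest of 14309 genes. Retnlg, a secreted protein gene of neutrophils, was above it at 10.62, and S100a8, a calcium-binding protein gene of neutrophils, was just below at 10.12. Every SgshKO library was above every WT library for Hpse at each age. The share of all genes with such a separation upward was 10.9% at 3 weeks, 29.8% at 4 months and 14.0% at 8 months, and nothing is read from it for a gene chosen on this contrast.

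**Figure D1:**
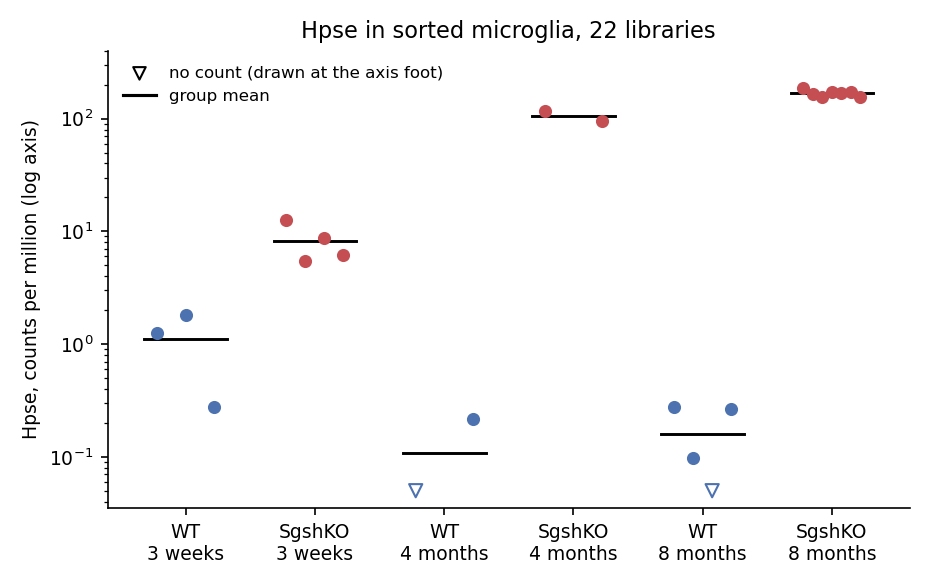
Hpse in CPM on a log axis (vertical) for each of the 22 libraries of the age series, by genotype and age (horizontal), with the group mean as a line and libraries with no count as open triangles at the foot. SgshKO libraries rise from 5.42 to 12.7 CPM at 3 weeks to 155 to 187 CPM at 8 months, while WT libraries stay at or below 1.81 CPM.

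The rise had the larger step between 3 weeks and 4 months. Within SgshKO, the pooled share of counts was 12.4 times higher at 4 months than at 3 weeks (counting interval 11.3 to 13.6) and 1.62 times higher at 8 months than at 4 months (1.55 to 1.70). Within WT it went the other way, to 0.123 times the 3-week share at 4 months (0.0246 to 0.380) and to the same 0.123 times at 8 months (0.0532 to 0.251). The genotype difference was thus 6.64 log2 units larger at 4 months than at 3 weeks and 0.65 larger at 8 months than at 4 months. The lower WT level at the later ages adds to the former value. The intervals cover counting error only, not the spread between libraries, and each genotype had 2 libraries at 4 months. In WT the lowest 3-week library (0.279 CPM) stood next to the highest 8-month library (0.277 CPM).

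On the per-length scale of the deposited TPM (reads scaled by transcript length and by library), Hpse averaged 0.551, 0.0545 and 0.081 TPM in WT at the 3 ages and 3.93, 50.3 and 76.7 TPM in SgshKO. In WT at 8 months 14221 of the 24940 genes listed had a higher mean TPM, and in SgshKO at 8 months 1122 did. Among the reported heparan sulfate enzymes of SgshKO microglia at 8 months, Gusb, the beta-glucuronidase, stood above Hpse at 240 ± 28.1 TPM, as did Naglu, the N-acetylglucosaminidase, at 184 ± 11.9 (SD, n = 7). Hpse at 76.7 ± 5.63 TPM came next, ahead of Arsg, a sulfatase for glucosamine, at 61.2 ± 4.72, and the ranges of these neighbours did not overlap (68.1 to 85.0 against 51.7 to 65.3). Below them, Ids at 52.0, Idua at 49.8 and the sulfatase-activating Sumf1 at 48.8 TPM did not differ beyond their spread. Hgsnat at 28.1 and Arsk at 23.2 had overlapping ranges, and Sgsh was lowest at 8.74. In WT of the same age the other 9 reported genes, Sgsh included, averaged 16.1 TPM or more.

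Neutrophil transcripts appeared in SgshKO at the ages at which Hpse was high. The summed level of 12 neutrophil markers (S100a8, S100a9, Camp, Ltf, Ngp, Lcn2, Mmp8, Mmp9, Retnlg, Ly6g, Cxcr2 and Elane) was 1.68 to 12.6 CPM over all WT libraries and 2.03 to 31.3 in SgshKO at 3 weeks. It was 3073 and 15006 CPM in SgshKO at 4 months and 443 to 5978 at 8 months. At 3 weeks none of the 12 passed edgeR's test or an unadjusted p of 0.05. S100a8, S100a9 and Ngp stood at log2 fold changes of 1.69, 1.66 and 1.68, while Elane, Ly6g and Retnlg had no read in SgshKO. At 4 months the library with 15006 CPM of these markers had the lower Hpse level, 95.5 CPM, and without it the Hpse log2 fold change was 9.64. At 8 months the library with the highest marker sum, 5978 CPM, held 156 CPM of Hpse, and the one with the lowest sum, 443 CPM, held 171. Without the former library the log2 fold change was 10.21.

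Markers of other cells moved as well. At 3 weeks 7 border macrophage markers summed to 82.5 to 109 CPM in SgshKO against 54.8 to 76.0 in WT. Mrc1 made up most of this sum at each age. It averaged 95.1 CPM in SgshKO against 64.0 in WT at 3 weeks (log2 fold change 0.57, edgeR adjusted p = 0.157). Cbr2, Ms4a7 and Cd163 stood at 1.99, 0.77 and 0.30 there, Lyve1 and Pf4 at -0.71 and -0.61, and none was called. At 4 months the sums were 68.1 and 121 CPM in SgshKO against 9.10 and 9.61 in WT. At 8 months they were 54.7 to 104 CPM against 15.2 to 32.1, with 4 of 6 tested higher. The sum of 7 monocyte markers reached 332 and 1421 CPM in SgshKO at 4 months and 52.1 to 477 at 8 months, against 6.53 to 14.5 in WT over all ages. Of 10 microglia markers, 7 were lower in SgshKO at 8 months and 2 higher. Over all genes 21.6% were called higher and 18.9% lower at that age. The part of neutrophils or of these other cells in the Hpse level was not tested.

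**Figure D2:**
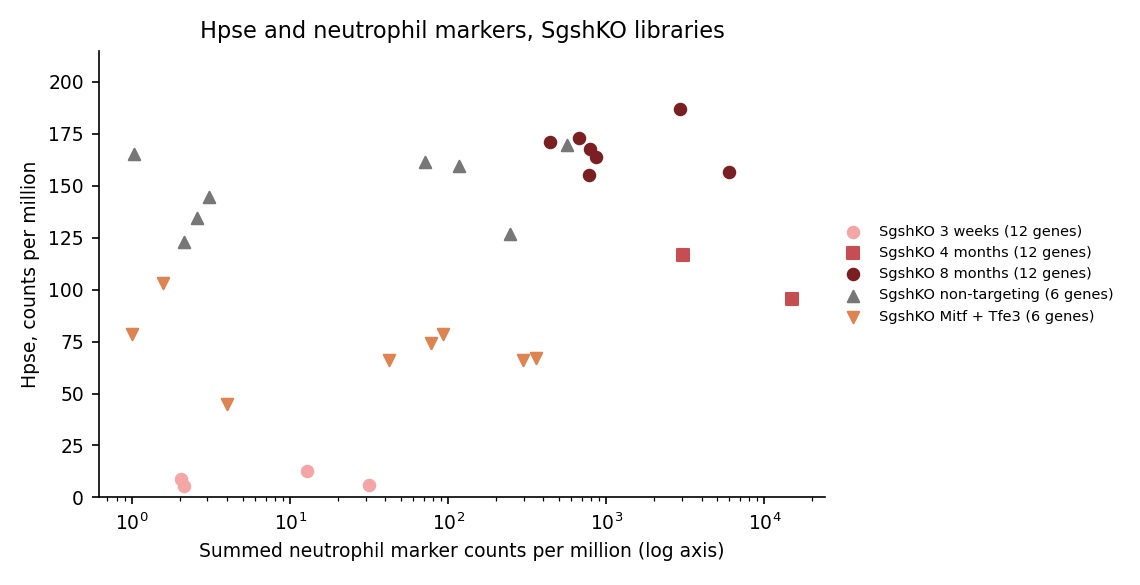
Hpse in CPM (vertical) against the summed level of the neutrophil markers listed in each table (horizontal, log axis; 12 in the age series, 6 in the oligonucleotide table), 1 point per SgshKO library. The 4 ntc libraries of grp 1 lie at 1.03 to 3.07 CPM of these markers and 123 to 165 CPM of Hpse, beside SgshKO libraries at 8 months with 443 to 5978 CPM of markers.

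The SgshKO oligonucleotide libraries are other libraries than those of the age series, and the question there was whether lowering Mitf and Tfe3 alters Hpse. Hpse and this test were chosen with earlier results of these data known, so the p-values for Hpse below are not those of an independent test. The targets fell. Mitf went from 72.4 to 15.3 CPM on average (log2 fold change -2.26 ± 0.12 SE, edgeR adjusted p = 2.19e-09) and Tfe3 from 170 to 80.4 CPM (-1.08 ± 0.06, adjusted p = 2.19e-09). Tfeb, which was not targeted, averaged 48.0 and 40.1 CPM and missed the threshold (-0.26 ± 0.08, adjusted p = 0.0535).

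Hpse was lower after the combination in both sets. In grp 1 the ntc libraries held 134, 165, 144 and 123 CPM and the combination libraries 103, 78.5, 66.1 and 44.9 CPM. In grp 2 the ntc libraries held 127, 159, 170 and 162 CPM and the combination libraries 67.2, 74.4, 78.5 and 66.1 CPM. The highest combination library (103) was below the lowest ntc library (123), so the groups did not overlap, which held in this direction for 0.652% of the 10589 genes tested. Means were 72.4 ± 16.5 and 148 ± 18.4 CPM (SD, n = 8 each), so that the combination left 48.9% of the ntc level.

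The log2 fold change was -1.03 ± 0.12 SE (95% interval -1.29 to -0.78, edgeR quasi-likelihood test with grp as a term, adjusted p = 5.59e-05), and Hpse was the 6th lowest of 10589 genes. Over all genes 4.5% were called lower and 4.84% higher. An exact two-sided permutation test within grp gave p = 0.000408, the smallest that its 4900 relabellings allow. The difference in mean log2 CPM was -1.01 in grp 1 and -1.10 in grp 2, and the test of a difference in effect between the sets gave -0.15 ± 0.24 (edgeR adjusted p = 0.787). In the deposited normalised and batch-corrected signal Hpse averaged 1235 ± 155 after the combination and 2573 ± 321 after ntc (SD, n = 8 each). In grp 1 replicates 1 to 4 held 1998, 2568, 2631 and 2898 after ntc. The same replicates held 1569, 1220, 1191 and 1081 after the combination, in mirrored order. The highest library was 1.45 times the lowest in both treatments, so the 2 SDs are not read as independent spreads. Fitted alone, grp 1 gave a log2 fold change of -0.94 with an edgeR adjusted p of 0.0509. Neither this fit nor the permutation test used the replicate numbers. With same-numbered libraries of a grp fitted as blocks, the value over both sets was -1.06 (edgeR adjusted p = 4.37e-05).

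**Figure D3:**
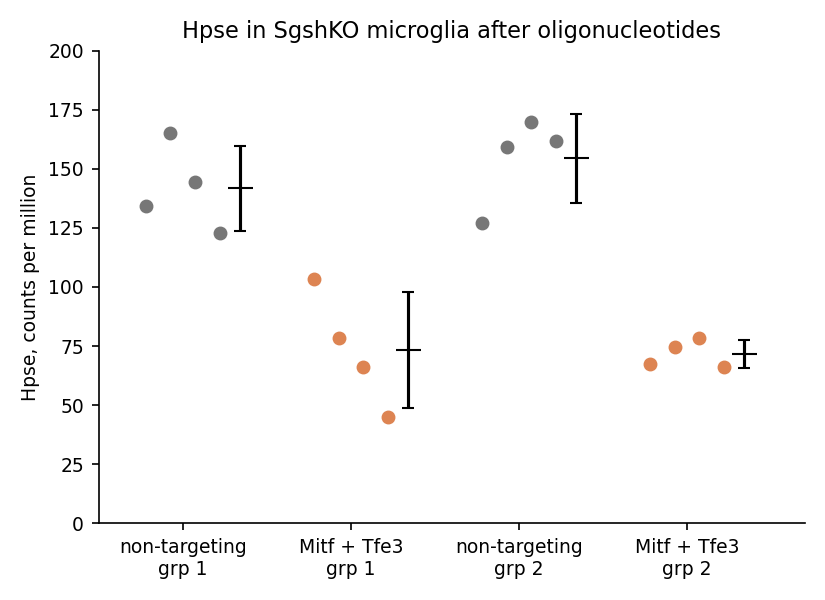
Hpse in CPM (vertical) in the 16 SgshKO oligonucleotide libraries, by treatment and grp (horizontal), with the mean and SD of each set of 4 beside its points. In both sets the 4 combination libraries (44.9 to 103 CPM) lie below the 4 ntc libraries (123 to 170 CPM).

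The level after the combination remained far above WT of any age in the age series, where the highest library held 1.81 CPM (the 2 tables list different genes, so these levels are only set side by side). Of the 12 neutrophil markers 6 were listed in the oligonucleotide table. Their sum was 1.03 to 3.07 CPM in the ntc libraries of grp 1, 71.3 to 564 in those of grp 2, 0.996 to 42.3 in the combination libraries of grp 1 and 77.8 to 358 in those of grp 2. None of the 6 was called by edgeR or DESeq2 or reached an unadjusted p of 0.05. Mrc1, the only border macrophage marker listed, was higher after the combination (0.22, edgeR adjusted p = 0.014). Of 2 monocyte markers listed, the chemokine receptor Ccr2 was lower (-0.71, edgeR adjusted p = 0.00793) and Chil3 was not called (0.34, adjusted p = 0.777). Among 10 microglia markers 3 were higher, beside 4.84% of all genes called higher and 4.5% lower. The part of these shifts in the fall of Hpse was not tested.

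In WT mice the response of Hpse to single oligonucleotides could not be measured. The WT table holds genes with a mean of 7.05 counts or more, and at the level of WT microglia at 8 months Hpse would give 2.30 to 4.86 counts in libraries of these depths. At the level of WT microglia at 3 weeks it would give 16 to 34 counts, above that minimum, and the age of the injected mice is not given. The targets fell in their own comparisons with the shared ntc libraries, Mitf from 43.7 to 1.58 CPM (log2 fold change -4.81), Tfeb from 54.9 to 5.80 CPM (-3.24) and Tfe3 from 198 to 38.1 CPM (-2.38). In SgshKO without oligonucleotides Mitf was higher than in WT at each age, by 0.47, 0.61 and 0.84 on the log2 scale (edgeR adjusted p = 0.00582, 0.00344 and 5.7e-08), while Tfeb and Tfe3 lay between -0.23 and 0.21 and did not pass the test (lowest edgeR adjusted p = 0.135). Tfec was called at 4 months only (3.74, adjusted p = 0.00816), on 4 WT and 47 SgshKO reads. That call was lost without WT replicate 1 (3.01, edgeR adjusted p = 0.0915), and the value ran from 1.39 to 8.27 over the alternatives.

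The other reported lysosomal genes of heparan sulfate breakdown changed by much less than Hpse. Of 8 tested, Sgsh apart, 4 were higher and none lower in SgshKO at 3 weeks, when 9.03% of all genes were called (5.31% higher, 3.72% lower). These were Arsg (0.96 ± 0.12 SE), Naglu (0.73 ± 0.11), Idua, the alpha-L-iduronidase (0.61 ± 0.08), and Gusb (0.34 ± 0.09). At 4 months 4 were higher and none lower, against 19.5% of all genes (10.3% higher, 9.26% lower). At 8 months 4 were higher and 2 lower, against 40.5% (21.6% higher, 18.9% lower). The list's median log2 fold change was 0.22, 0.34 and 0.38 at the 3 ages, beside -0.02, 0.02 and 0.02 over all genes.

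Arsg and Naglu held the largest values of this list at 8 months, 0.87 ± 0.10 and 0.83 ± 0.09 (edgeR adjusted p = 9.84e-08 and 8.67e-08). Naglu averaged 320 ± 23.5 CPM in SgshKO (n = 7) and 180 ± 20.8 in WT (n = 4). Hgsnat, the membrane acetyltransferase, was lower at 8 months (-0.31 ± 0.08, adjusted p = 0.00454), as was Arsk, a sulfatase for glucuronate (-0.39 ± 0.11, adjusted p = 0.00559). Ids, the iduronate sulfatase, and Sumf1 passed the test at no age. For none of the 8 was a change of the genotype difference with age called by edgeR's interaction test, which called 2.52% of all genes for 4 months against 3 weeks and 9.25% for 8 months against 3 weeks. From 3 weeks to 8 months 1 of them, Hgsnat, had an unadjusted p under 0.05 and DESeq2 called 0, and for the other pairs of ages both counts were 0.

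Several of these smaller calls rested on few libraries. At 4 months the calls of Idua, Naglu and Gusb were lost without either WT library or without SgshKO replicate 1 (log2 fold change 0.12 to 0.39 for Idua, 0.35 to 0.55 for Naglu and 0.19 to 0.36 for Gusb), and that of Gusb also without SgshKO replicate 2 (0.38), leaving Arsg of the 4. Gusb at 3 weeks was lost without WT replicate 1 or 2 (0.28 and 0.32).

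**Figure D4:**
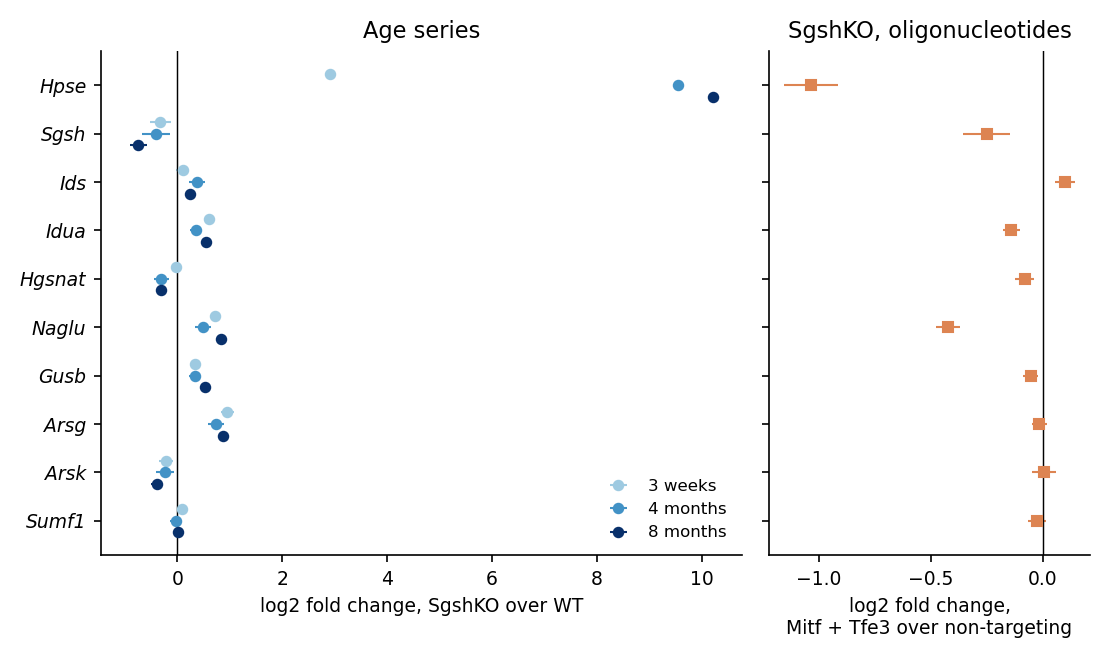
Log2 fold change (horizontal) of Hpse and 9 lysosomal heparan sulfate genes (rows), SgshKO over WT at 3 ages on the left and the Mitf and Tfe3 combination over ntc in SgshKO on the right, with 1 SE as bars (none is drawn for Hpse in the age series). Hpse lies at 2.92, 9.55 and 10.21 while the other genes lie between -0.74 and 0.96, and after the combination Hpse (-1.03) and Naglu (-0.42) are lowest.

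After the combination in SgshKO, 2 of the 8 were lower and none higher, against 9.33% of all genes called, and the list's median was -0.04. Naglu fell from 323 ± 19.3 to 241 ± 21.8 CPM (SD, n = 8 each, log2 fold change -0.42 ± 0.05 SE, edgeR adjusted p = 0.000165). Idua was slightly lower (-0.14 ± 0.04, edgeR adjusted p = 0.0324). The call of Idua was lost without any of 9 single libraries (-0.14 to -0.12), which were ntc replicates 2 and 4 of grp 1 and 1 and 3 of grp 2, and combination replicates 1, 3 and 4 of grp 1 and 2 and 3 of grp 2. Sgsh stood at -0.25 ± 0.11 and did not pass (adjusted p = 0.145).

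Of the genes that act on heparan sulfate outside the lysosome, Hpse2, the heparanase relative without enzyme activity, was at 0 or 1 read and was not tested. Sulf2, an extracellular sulfatase of heparan sulfate, was higher in SgshKO than in WT at 4 months (1.11) and 8 months (1.66 ± 0.15, edgeR adjusted p = 4.05e-09). It fell with age in both genotypes, from 50.9 CPM at 3 weeks to 14.2 at 8 months in WT (log2 fold change -1.84, edgeR adjusted p = 2.4e-07) and from 64.3 to 45.0 in SgshKO (-0.51, adjusted p = 0.0063), so that the genotype difference was 1.32 larger at 8 months. Without WT replicate 2 the 4-month call of Sulf2 was lost (0.85). Sulf1 passed at no age, and neither was called after the combination, though both had an unadjusted p under 0.05 and DESeq2 called 1.

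Among 14 core proteins that carry the chains, 12 were tested. At 8 months 4 were higher, the syndecans Sdc3 (1.76 ± 0.14) and Sdc4 (1.58 ± 0.11) and the glypicans Gpc4 and Gpc1, and 2 were lower, Agrn (-0.54 ± 0.09) and the glypican Gpc2 (-0.63 ± 0.12), beside 21.6% of all genes called higher and 18.9% lower. Gpc4 and Gpc1 were low throughout, at 8.87 and 4.54 CPM in SgshKO and 0.149 and 0.126 CPM in WT (9 and 10 WT reads). At 3 weeks 1 was higher, Sdc4, and 1 lower, Agrn, beside 5.31% of all genes called higher and 3.72% lower. At 4 months 4 were higher and 1 lower, beside 10.3% and 9.26%. At 4 months the calls of Gpc1, Gpc4 and Gpc2 were lost without WT replicate 2 (4.74, 2.60 and -0.42), those of Gpc1 and Gpc4 without SgshKO replicate 2 (2.83 and 1.69), and that of Gpc4 without WT replicate 1 (2.63). After the combination Sdc3 was higher (0.43 ± 0.10, edgeR adjusted p = 0.0121) and Sdc4 lower (-0.46 ± 0.07, adjusted p = 0.000442) among 8 listed. Over all genes 4.84% were called higher and 4.5% lower there. The call of Sdc3 was lost in grp 2 alone (0.21, edgeR adjusted p = 0.172).

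Of 4 genes for the maturation and uptake of heparanase, Ctsl, the cathepsin that cuts the precursor, was higher at every age (0.69 ± 0.17, 1.14 ± 0.22 and 1.85 ± 0.15, edgeR adjusted p = 0.0085, 0.000587 and 3.67e-10). Its difference grew by 1.15 from 3 weeks to 8 months, and its 3-week call was lost without WT replicate 3 (0.63). It reached 555 ± 32.3 TPM in SgshKO at 8 months against 171 ± 60.8 in WT. M6pr and Igf2r, the mannose 6-phosphate receptors, were higher at 8 months (0.27 and 2.29), Igf2r from a level of 1.46 CPM in WT. Igf2r was also called at 4 months (2.80), a call lost without WT replicate 2 (2.78) or SgshKO replicate 2 (1.56). Lrp1, an endocytic receptor, passed at no age. After the combination none of the 4 was called by edgeR or DESeq2, while Ctsl (0.09) and Lrp1 (0.30) had an unadjusted p under 0.05.

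Of 7 hydrolases of other glycosaminoglycans 3 were higher at 8 months, Glb1, the beta-galactosidase (1.53 ± 0.10), Hexa, the hexosaminidase alpha subunit (1.10 ± 0.07) and Galns (0.73 ± 0.10), and 1 was lower, Arsb (-0.31 ± 0.09), beside 21.6% of all genes called higher and 18.9% lower. The call of Arsb was lost without WT replicate 1 (-0.17, edgeR adjusted p = 0.104). The same 3 were called higher at 3 weeks (5.31% of all genes) and at 4 months (10.3%), Galns at 3 weeks on a margin lost without WT replicate 1 or 2 or any 1 of the 4 SgshKO libraries (0.31 to 0.43). After the combination none of 6 listed was called by edgeR or DESeq2 or had an unadjusted p under 0.05, and all lay between -0.13 and 0.07. In WT the Mitf oligonucleotide raised Ctsl by 0.55 (edgeR adjusted p = 2.71e-06), Hexa by 0.34 (8.22e-05), Glb1 by 0.24 (0.00328) and Idua by 0.29 (0.00429), against 11.0% of the 10277 genes called (5.77% higher). Naglu was not called in any WT comparison (0.23, 0.04 and -0.02 for Mitf, Tfeb and Tfe3).

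The genes whose log2 CPM over the 22 age libraries followed Hpse most closely are given by Pearson's r, as a description, since these libraries share their group structure. They were Cst7, the cystatin F gene (r = 0.983), Eef1a1, a translation elongation factor (0.975), Myo5a, an unconventional myosin (0.973), Gm2a, the GM2 ganglioside activator (0.973), Chst2, a sulfotransferase acting on N-acetylglucosamine (0.973), Lox, the lysyl oxidase (0.971), Clec7a, the beta-glucan receptor dectin-1 (0.971), and Pkm, the pyruvate kinase (0.971). Their size of change differed widely. At 8 months Lox stood at a log2 fold change of 8.74, Chst2 at 5.76, Cst7 and Clec7a at 5.61 each and Myo5a at 3.33, while Pkm, Gm2a and Eef1a1 were between 1.45 and 1.76. Lox was nearest to Hpse in level, at 0.303 CPM in WT and 148 CPM in SgshKO at 8 months.

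In the SgshKO oligonucleotide libraries these 8 genes did not move alike. Clec7a (-0.55 ± 0.07 SE, edgeR adjusted p = 0.000219) and Cst7 (-0.38 ± 0.05, adjusted p = 0.000102) fell, by less than Hpse. Gm2a rose (0.44 ± 0.06, adjusted p = 0.000442). Lox, Chst2, Myo5a, Eef1a1 and Pkm were not called, with values of -0.14, -0.22, -0.14, -0.10 and 0.10. Cst7 averaged 111 CPM after ntc and 85.1 after the combination, and Clec7a 322 and 221.

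All 8 were listed in the WT table, where the 3 oligonucleotides were each compared with the same ntc libraries. With the Mitf oligonucleotide 6 of the 8 were higher, Lox by 2.42 (edgeR adjusted p = 6.38e-05), Chst2 by 1.73 (6.38e-05), Cst7 by 1.45 (0.000921), Pkm by 0.63 (2.87e-07), Gm2a by 0.46 (6.28e-07) and Eef1a1 by 0.30 (0.00328), against 5.77% of all genes called higher. With the Tfe3 oligonucleotide 5 were higher, Lox (1.34, 0.0281), Chst2 (1.20, 0.00658), Cst7 (1.17, 0.0185), Pkm (0.54, 1.72e-05) and Gm2a (0.34, 0.000108), against 1.46% of all genes called higher. With the Tfeb oligonucleotide 2 were, Pkm (0.37, 0.000699) and Gm2a (0.30, 0.000621), against 0.564%. With Tfe3, the call of Cst7 was lost without ntc replicate 1, 2 or 4 or Tfe3 replicate 3 (0.96 to 1.17), and that of Lox without the same ntc replicates or any 1 of the Tfe3 libraries (1.07 to 1.43). Cst7 was therefore higher with a Mitf or Tfe3 oligonucleotide in WT and lower with the combination in SgshKO. The difference between the 2 experiments was not tested.

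**Figure D5:**
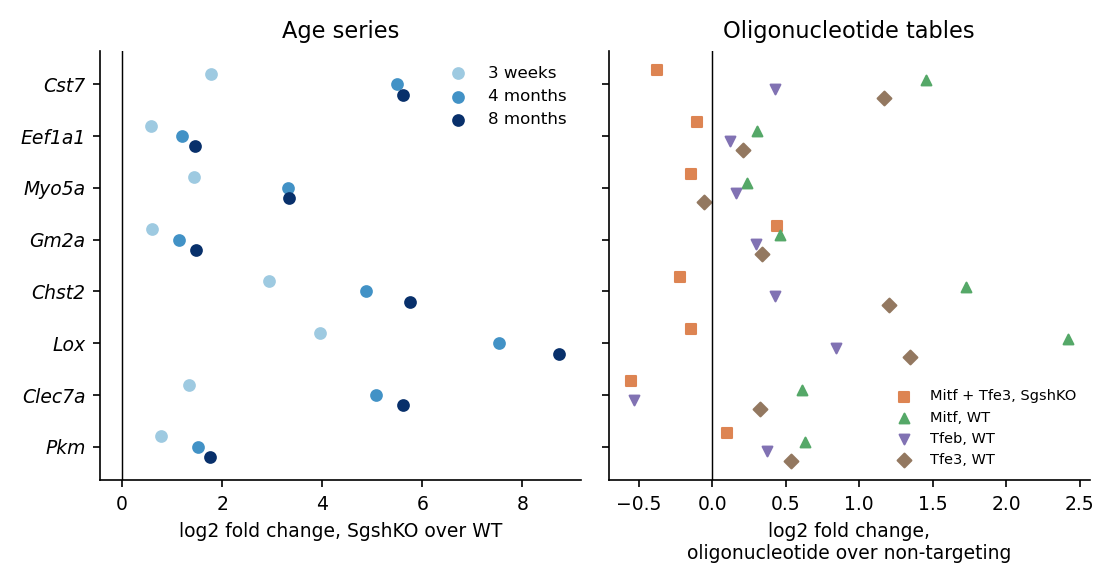
Log2 fold change (horizontal) of the 8 genes most like Hpse over the age series (rows), SgshKO over WT at 3 ages on the left and oligonucleotide over ntc in the SgshKO and WT tables on the right. Right of 0 in WT lie Cst7 (1.45 with Mitf), Chst2 (1.73) and Lox (2.42), while Cst7 (-0.38) and Clec7a (-0.55) lie left of 0 with the combination in SgshKO.

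Over the 16 SgshKO oligonucleotide libraries alone, the genes most like Hpse were Fabp5, a fatty acid binding protein (r = 0.946), Cst7 (0.938), Naglu (0.917), Gpr162, an orphan receptor (0.914), and Slc16a3, a lactate transporter (0.911). Chosen on these libraries, they are given without a test. Fabp5 averaged 7.14 CPM after ntc and 3.01 after the combination (log2 fold change -1.27), Gpr162 stood at -0.67 and Slc16a3 at -0.38. At 8 months in the age series the log2 fold change of Gpr162 was 3.20, that of Slc16a3 1.54 and that of Fabp5 4.63, the last from 0.355 CPM in WT. Cst7 was in the first 2 places over both sets of libraries.

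None of the neighbours of Hpse on chromosome 5 was called higher in SgshKO, beside 5.31%, 10.3% and 21.6% of all genes at the 3 ages. With so few genes nothing is read from this. Of the 3 nearest listed genes on each side, Coq2, Plac8 and Cops4 on the one and Helq, Mrps18c and Abraxas1 on the other, Plac8 had the highest values, with log2 fold changes of 3.80 at 4 months (edgeR adjusted p = 0.0615) and 1.54 at 8 months (adjusted p = 0.141, from 1.13 CPM in WT to 3.06 in SgshKO), and -1.05 at 3 weeks. Mrps18c stood at 0.61 at 8 months (edgeR adjusted p = 0.0718). Cops4, a signalosome subunit gene, was lower at 3 weeks (-0.32, edgeR adjusted p = 0.0187) and at 8 months (-0.49, adjusted p = 3.63e-06). Coq2, 5.23 kb from Hpse, stood at 0.01, -0.36 and -0.13 at the 3 ages and at 0.08 after the combination. After the combination the 5 listed neighbours lay between -0.42 and 0.08, with edgeR adjusted p of 0.0924 or above.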

How the data were processed

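RNA-seq libraries of sorted microglia were used as 3 raw count tables, with companion tables of TPM (age series) and of normalised, batch-corrected signal (both oligonucleotide tables). The counts, TPM and signal values are as deposited by the authors. The submitters' processing notes name STAR 2.5.3a, kallisto 0.44.0, HOMER 4.11, DESeq2 1.36.0, R 4.2.3 and mm10, without saying which step each served. The normalization behind the deposited signal is not given in the sources used here. Annotation IDs were read from the count tables, and promoter sequences came from RefSeq (GRCm38.p6).

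Counts were tested with edgeR 4.0.16 (limma 3.58.1, R 4.3.3) by the quasi-likelihood test with TMM factors after filterByExpr (minimum count 10), and p-values were adjusted by Benjamini-Hochberg over all genes tested, with a threshold of 0.05. All 6 age groups were fitted together, and the oligonucleotide fits had grp as a term. CPM use TMM-scaled library totals, and r used log2 CPM with a prior count of 2. DESeq2 1.42.0, RLE factors, no filter, limma on log2(TPM + 1) and log2(TPM + 0.1), limma on log2(signal + 1), the replicate block and leaving out libraries were the alternatives. The test was tried on simulated data. Counting intervals are exact 95% intervals of the pooled ratio.

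Hpse, the gene lists and the tests were chosen with earlier results of these data known. One gene of the breakdown list is not reported here, and the list's counts leave it out. Named genes were Hpse, Sgsh and the MiT/TFE factors, members of the lists, the 8 tested genes with the highest r with Hpse over the 22 age libraries and the 5 over the 16 SgshKO oligonucleotide libraries, the 3 nearest listed genes on each side, and the genes ranked beside Hpse. Same-numbered libraries of the genotypes did not deviate together (r -0.17 to 0.11 at 3 weeks, 0.03 at 4 months, -0.06 to 0.05 at 8 months), so their numbers were not used to pair them. In the SgshKO oligonucleotide table r was 0.08 to 0.61.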

Additional observations from a re-analysis of the deposited data

Results flagged for a closer look

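The genotype difference of 8 listed genes was larger at 8 months than at 3 weeks by edgeR's interaction test, which called 9.25% of all genes in either direction. The differences of the log2 fold change were 6.41 for Gpc1, 5.55 for Gpc4, 3.14 for Igf2r, 1.58 for Sdc3, 1.32 for Sulf2, 1.15 for Ctsl, 0.97 for Glb1 and 0.50 for Hexa. Between 4 months and 3 weeks, where 2.52% of all genes were called in either direction, the genotype difference was larger for 4. These were Gpc1 (by 6.86), Tfec (4.45), Igf2r (3.64) and Glb1 (0.71). All 4 of the latter lost their call on leaving out any of several single libraries, and for Gpc1 from 3 weeks to 8 months leaving out WT 3-week replicate 3 did so (5.13, edgeR adjusted p = 0.0971). Gpc1 and Gpc4 had few WT reads, as did Tfec at 4 months (4 reads), while Igf2r had 159, 149 and 99 WT reads at the 3 ages. Tfec fell in WT from 4.06 CPM at 3 weeks to 0.143 at 4 months (log2 fold change -4.53, edgeR adjusted p = 0.00481). In SgshKO it stood at 2.48 and 2.33 CPM.

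A single library stood far from the rest of its group in 2 of 40 checks of the breakdown enzymes, where chance flags about 1 in 20, and in none of 5 for Hpse. These were Gusb in SgshKO at 8 months replicate 2 (540 CPM) and Arsg in SgshKO at 8 months replicate 5 (116 CPM).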

How the results depend on the processing

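The log2 fold change of Hpse kept its direction under every alternative that was run. On the compressed log2(TPM + 1) and log2(TPM + 0.1) scales it was 5.60 and 8.44 at 4 months and 6.17 and 8.81 at 8 months. Leaving out 1 library gave 2.42 to 3.51 at 3 weeks, 8.91 to 9.64 at 4 months, 9.69 to 10.68 at 8 months and -1.14 to -0.96 after the Mitf and Tfe3 combination. Without WT 4-month replicate 2 no value was given. For the combination the adjusted p ran from 6.31e-10 to 0.0509 over 24 alternatives, the highest in grp 1 alone (-0.94). With the replicate block Hpse stood at 2.90, 9.51, 10.23 and -1.06 (edgeR adjusted p = 4.37e-05), and the counts of breakdown enzymes called were 4, 4, 6 and 2. Of those 8 enzymes, 4 were called at 4 months but 2 with no filter on low counts and 1 to 3 without 1 library. After the combination 2 were called, but 1 with no grp term, 1 in the batch-corrected signal, 0 in grp 1 alone (edgeR), 1 in grp 2 alone and 1 to 2 without 1 library. For single genes, 64 of 98 calls held under all alternatives, chosen after seeing the data, and none of 1547 values reversed. In WT the calls of Idua and Eef1a1 with Mitf, of Cst7, Chst2 and Lox with Tfe3 and of Pkm with Tfeb were lost with no replicate block (no grp term). The planned WT oligonucleotide results for Hpse could not be run, as the table does not list it. Depth limits the WT level of Hpse, which rests on 0 to 30 reads per library.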
